A study of Arabidopsis thaliana with 18 samples.

Results

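Leaves of Arabidopsis thaliana that lack the STN7 kinase were compared 30 min after a change of light with leaves harvested before it. The comparison rests on 6 of the 18 arrays of the study: 3 of stn7 leaves after 30 min in photosystem II (PSII) light and 3 of stn7 leaves at 0 min, still in photosystem I (PSI) light. Arrays were assigned to groups by their titles, and each of the 6 groups of the study held 3 biological replicates. All plants were 23 days old. They had grown for 20 days under white light (35 µE, 22 °C, 60% humidity) and had then spent 3 days in PSI light. Each sample pooled the rosette leaves of at least 250 plants. The stn7 plants were the T-DNA knockout line SALK_073254 in the Col-0 background, a single line, and the wild type (WT) was Col-0. The stn7 60 min group, WT 30 min group and WT 0 min group are used where the stn7 change is set against a later time or against WT. No group stayed in PSI light for another 30 min, so the change of light and the time of harvest cannot be told apart.

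Photosystems I and II absorb different wavelengths, and light that favours one of them shifts the redox state of the plastoquinone pool between them. STN7 is a thylakoid protein kinase that is activated when plastoquinone is reduced, phosphorylates antenna proteins of PSII and is needed for state transitions and for part of the longer-term acclimation to light quality. PSI light is rich in long wavelengths, so the change to PSII light also alters what phytochromes, the red and far-red light receptors, perceive. No probe set carried the STN7 locus in the gene annotation used, so the loss of the transcript could not be checked here.

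Values are log2 signals of probe sets, and a change is a difference of log2 values, stn7 30 min minus stn7 0 min, with its moderated standard error (SE; n = 3 arrays per group). A probe set was called changed at an adjusted p under 0.05. A gene of a list counts as measured where the annotation used gives a probe set that gene alone. Other list members may lie on the 8730 probe sets it does not list or the 503 it gives several genes. Measured were 6 of 30 genes of the shade avoidance and auxin list and 6 of 30 of the low energy list. For salicylate and pattern-triggered defence it was 7 of 25, and for chlorophyll and haem synthesis 9 of 29. For autophagy it was 10 of 16, for calcium sensors 11 of 15, for glucosinolates 3 of 26 and for cold-regulated genes 4 of 12. Shares of a list are shares of its measured genes. On the 18 arrays the median signal lay between 6.10 and 6.31 and the lowest between 2.53 and 2.67, and the values carry no detection call, so a low signal cannot be told from background here. The stn7 30 min arrays correlated with each other at 0.994 to 0.997, the stn7 0 min arrays at 0.990 to 0.994, and pairs across these groups at 0.983 to 0.992. Arrays of a group differed along one common axis that held 28.0% of the within-group variance. Its score averaged -15.4 ± 12.4 (SD, n = 3) in stn7 at 30 min and -2.93 ± 20.4 in stn7 at 0 min, and -14.8 ± 7.0 in WT at 30 min and 32.9 ± 20.0 in WT at 0 min. The signal difference between 3' and 5' ends, taken over 6 pairs of control probe sets as a measure of RNA integrity, was 0.895 ± 0.049 in stn7 at 30 min and 0.928 ± 0.029 at 0 min. RCA, a leaf mesophyll marker that encodes Rubisco activase, read 13.1 in both stn7 groups. The root marker PYK10, a beta-glucosidase gene, was also high, at 12.1 in both.

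In stn7 leaves 1649 of 22746 probe sets had changed by 30 min, which is 7.25% of those tested. Of these, 789 were higher (3.47%) and 860 were lower (3.78%). Changes were mostly small. The median was 0.51 among the called rises and -0.58 among the called falls, and 44 rises and 105 falls were at least 2-fold. With each array centred on the same median the split was 500 higher and 1140 lower. A total of 5516 probe sets (24.3%, with 13.6% higher and 10.6% lower) had 30 min arrays that did not overlap the 0 min arrays, and 1606 (7.06%) were both called and without overlap. Since 1606 of the 1649 called ones had no overlap, its lack adds little to a call. With single arrays left out, 1011 were called without stn7 0 min replicate 2, 840 without stn7 0 min replicate 3, 909 without stn7 30 min replicate 2 and 684 without stn7 30 min replicate 3. Without both outer stn7 0 min arrays on the axis, replicates 1 and 3, it was 382.

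**Figure D1:**
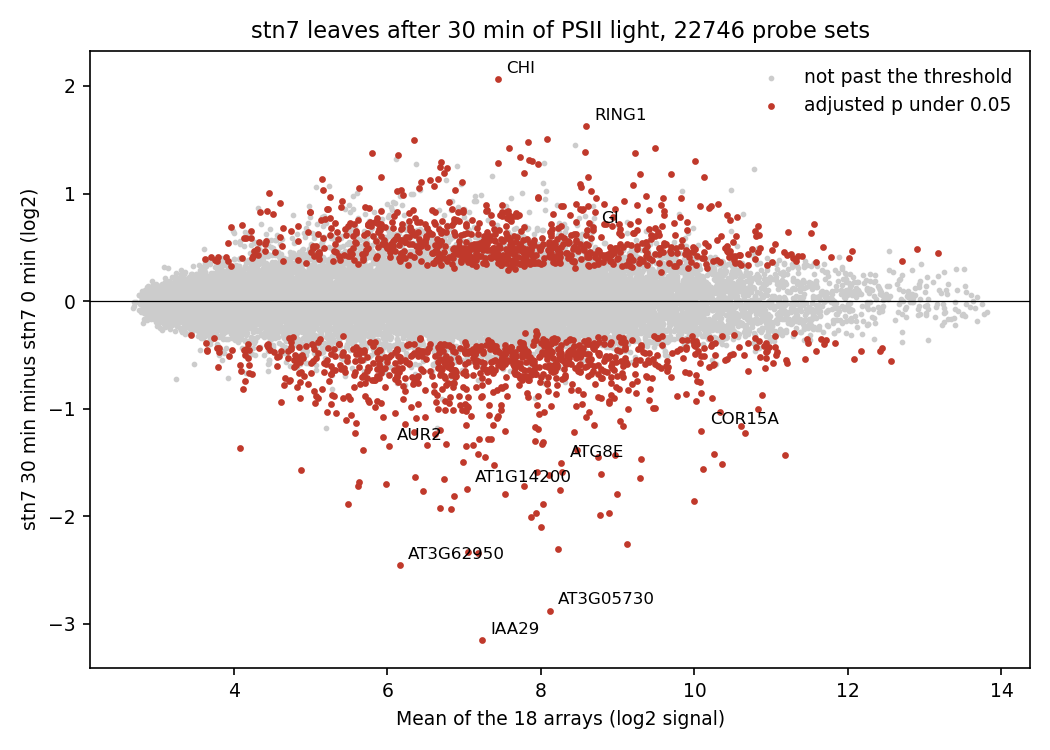
Change in stn7 leaves after 30 min of PSII light (stn7 30 min minus stn7 0 min, log2, vertical axis) against the mean log2 signal over the 18 arrays (horizontal axis), 1 point per probe set. The 1649 probe sets past an adjusted p of 0.05 are red, and the falls reach -3.15 (IAA29) while the rises reach 2.07 (CHI).

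The falls were led by IAA29, which encodes an auxin-responsive Aux/IAA protein that is induced by shade. Its log2 signal was 6.10, 6.94 and 7.08 in stn7 at 30 min, against 9.92, 9.83 and 9.82 in stn7 at 0 min. Every 30 min array lay more than 2 log2 units under every 0 min array, and the change was -3.15 ± 0.22 (adjusted p = 1.3e-07), an 8.87-fold lower signal. By 60 min in PSII light IAA29 read 5.31, 4.70 and 5.09, lower by a further 1.67 ± 0.22 (adjusted p = 0.000208). The shade avoidance and auxin list had a median of -0.26, against 0.01 over all probe sets. Of its 6 measured genes 2 fell and 0 rose (33.3% called, against 7.25% of all probe sets). The other one was GH3.3, an enzyme gene that conjugates auxin to amino acids. It read 4.64, 4.55 and 4.80 at 30 min and 4.97, 5.29 and 5.74 at 0 min (-0.67 ± 0.15, adjusted p = 0.0107). Those groups did not overlap, but the GH3.3 call was lost without stn7 30 min replicate 2 or stn7 0 min replicate 3 (adjusted p up to 0.0763).

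The probe sets most like IAA29 over the 9 stn7 arrays, among the 835 other called ones with 1 gene, were AT3G07310 (Pearson r = 0.996), AT2G29290 (0.989), AT4G16000 (0.985), AT1G15230 (0.985) and SECE1 (0.983). These are correlations across arrays that share the same 3 harvest times. The genes changed by -0.82, -0.97, -1.01, -0.41 and -0.59 at 30 min, all with a smaller fall than IAA29, and SECE1 encodes a subunit of the thylakoid Sec translocase.

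AT2G20670, which encodes a DUF506 protein, read 8.0, 8.19 and 8.56 at 30 min and 10.21, 10.64 and 10.68 at 0 min (-2.26 ± 0.23, adjusted p = 1.05e-05). AT3G15450, a gene induced by darkness and low sugar, read 10.39, 10.83 and 11.03 at 30 min and 12.12, 12.19 and 12.25 at 0 min (-1.43 ± 0.25, adjusted p = 0.00218). In both, all 3 arrays at 30 min lay under all 3 at 0 min. They were the 2 of 6 measured members of the low energy and sugar starvation list that fell (33.3%). Over all probe sets 7.25% were called. None of the list rose, and its median was -0.29. SIS, BZIP53, AKINBETA1 and ATL8 did not pass the test and changed by -0.41, -0.12, -0.16 and 0.11. The call of AT3G15450 was lost without both outer stn7 0 min arrays (adjusted p = 0.0679).

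Of 10 measured autophagy genes, whose products build the vesicles that recycle cell contents during starvation, 4 fell, 0 rose and 6 did not pass, with a median of -0.28. Over all probe sets 7.25% were called. All 4 autophagy genes that fell encode ATG8, the ubiquitin-like protein that is coupled to the vesicle membrane. ATG8B, another gene of this family, was the 1 member above 0 (0.21) and was not called. ATG8E read 7.60, 7.71 and 7.18 at 30 min, against 8.44, 9.26 and 9.31 at 0 min, so that the groups did not overlap (-1.51 ± 0.24, adjusted p = 0.00116). ATG8H changed by -0.89 ± 0.15, ATG8F by -0.49 ± 0.13 and ATG8C by -0.50 ± 0.14. With 1 array left out at a time between 2 and 5 members fell. ATG8F and ATG8C were the ones lost, both without stn7 0 min replicate 2 or 3 or stn7 30 min replicate 2 or 3, and ATG8C also without stn7 30 min replicate 1.

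A glutaredoxin gene had the third largest fall. AT3G62950 belongs to the plant-specific CC-type glutaredoxins, small proteins that use glutathione and interact with TGA transcription factors. It read 5.31, 5.0 and 5.27 at 30 min, against 7.63, 7.72 and 7.61 at 0 min, close together within each group (-2.46 ± 0.15, adjusted p = 5.64e-08, 5.49-fold lower). Of 17 measured CC-type glutaredoxins 5 fell, 1 rose and 11 did not pass (35.3% called, against 7.25% of all probe sets). The median was -0.29. AT4G15700 changed by -0.84 ± 0.22, AT2G47880 by -0.62 ± 0.17, AT3G62930 by -0.57 ± 0.11 and AT5G18600 by -0.39 ± 0.10. GRX480, a member induced by salicylate, rose by 0.67 ± 0.18 (adjusted p = 0.026). AT4G15660, AT4G15680, AT4G15690 and AT4G15700 are close copies of each other, so that their probe sets may share signal. With 1 array left out between 2 and 7 members fell. The GRX480 call was lost without stn7 0 min replicate 2 or 3 or stn7 30 min replicate 2 or 3, and after median centring or quantile normalization (adjusted p up to 0.176 over all alternatives).

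F-box and RING-type genes, whose products take part in tagging proteins with ubiquitin, were found among the largest falls. The RING-type genes RING1 and AT1G20823 were among the largest rises. They were picked out of the 20 largest falls and 20 largest rises, and the share of all such genes that changed was not counted. The RING-type list taken from the annotation's words held only 2 measured genes, 1 of them called lower. AT1G23390 encodes a Kelch-repeat F-box protein that targets chalcone synthase of flavonoid synthesis for degradation. It read 7.09, 6.89 and 7.13 at 30 min, against 9.10, 9.55 and 9.38 at 0 min (-2.31 ± 0.15, adjusted p = 9.48e-08), and by 60 min it had come back up by 0.70 ± 0.15. The RING-type ubiquitin ligase genes AT1G49210 (-1.88), AT1G26800 (-1.79), AT1G14200 (-1.74) and AT1G49200 (-1.59) and the F-box gene AT3G23880 (-1.82) also fell. The sharpest turn was that of AT1G14200. It read 4.65, 5.48 and 5.46 at 30 min, against 6.82, 7.02 and 6.98 at 0 min, and then 7.27, 7.86 and 8.27 at 60 min. The 60 min arrays lay above both earlier times, and the change between 30 and 60 min was 2.60 ± 0.21 (adjusted p = 3.73e-06). AT1G26800 turned in the same direction, by 1.2 ± 0.22 (adjusted p = 0.00162).

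A defensin-like gene and a lipid-transfer gene, both for small secreted proteins, fell strongly. AT3G05730, the defensin-like one, read 7.05, 5.85 and 6.14 at 30 min, against 8.74, 9.60 and 9.35 at 0 min (-2.88 ± 0.29, adjusted p = 9.31e-06). AT5G01870, the lipid-transfer one, read 5.93, 5.28 and 4.92 at 30 min, against 7.32, 7.27 and 7.30 at 0 min (-1.93 ± 0.25, adjusted p = 0.000154). Neither pair of groups overlapped, which the choice of the 20 largest falls required. The rest of the 20 largest falls were AT3G07350 (-2.33), AT4G33666 (-2.10), AT5G60680 (-1.97), AT2G28400 (-1.93), AT5G12050 (-1.71), AT4G10910 (-1.70), AT5G03230 (-1.62), AT3G26510 (-1.60) and AT2G34620 (-1.59). The last encodes a protein of the mitochondrial transcription termination factor family. All 20 remained called in each alternative that measured them, apart from the fold minimum, and by 60 min 7 of the 20 were higher than at 30 min, 3 were lower and 10 did not pass.

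**Figure D2:**
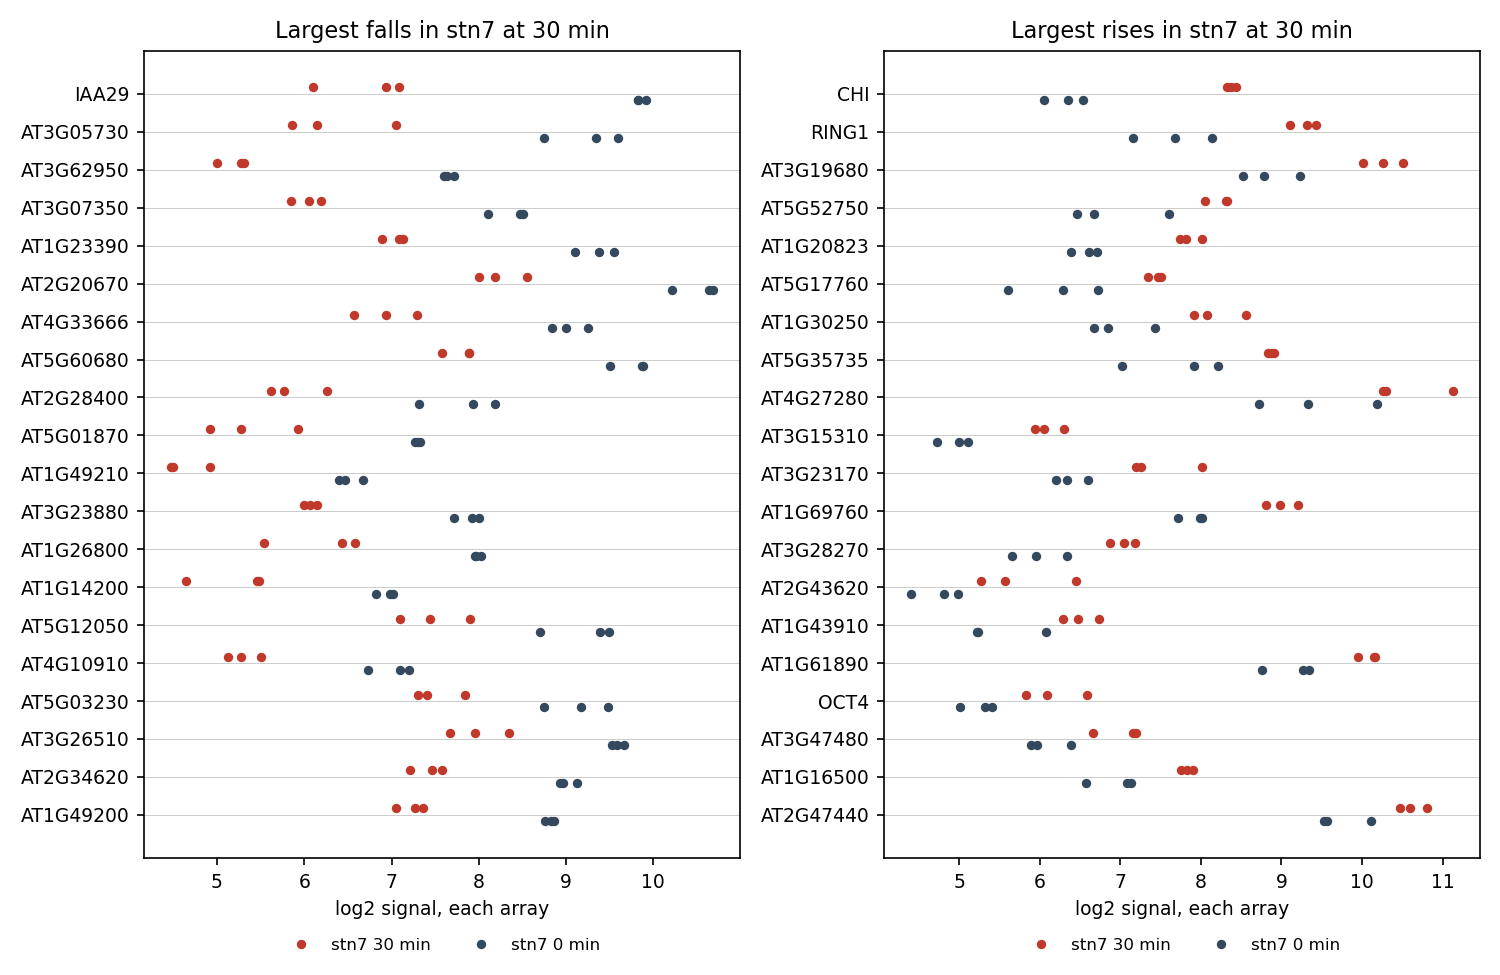
Log2 signal of each array (horizontal axis) for the 20 largest falls (left) and 20 largest rises (right), with stn7 30 min in red above stn7 0 min in dark blue. No gene shown has overlapping groups, which its choice required, and the falls are the larger ones, -3.15 to -1.59 against 0.89 to 2.07.

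The largest rises were those of CHI and RING1. CHI, here the chitinase gene AT2G43570, whose product cuts the chitin of fungal walls, read 8.37, 8.33 and 8.44 at 30 min, against 6.35, 6.54 and 6.06 at 0 min (2.07 ± 0.23, adjusted p = 3.93e-05, 4.19-fold higher). RING1, a ubiquitin ligase gene that acts in the cell death response to fungal toxins, read 9.42, 9.31 and 9.11 at 30 min, against 7.16, 8.13 and 7.69 at 0 min (1.62 ± 0.29, adjusted p = 0.00243). Both genes were higher in all 3 arrays at 30 min than in any at 0 min. They were the 2 of 7 measured members of the salicylate and pattern-triggered defence list that rose. None fell, the list median was 0.32, and 28.6% of the list was called, against 7.25% of all probe sets. PUB22, PUB23 and PUB24, ubiquitin ligases that dampen pattern-triggered immunity, changed by 0.17, 0.32 and -0.13, SAG101 by 0.35 and BIK1 by 0.01, none past the threshold. The RING1 call was lost without both outer stn7 0 min arrays (adjusted p = 0.156).

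Calcium sensor genes lay above 0 throughout, but few passed. Of 11 measured members 2 rose and 0 fell, and the median was 0.55. Over all probe sets 7.25% were called, 3.47% higher and 3.78% lower. AT3G47480, an EF-hand gene, read 7.19, 7.15 and 6.66 at 30 min and 5.96, 6.39 and 5.89 at 0 min (0.92 ± 0.23, adjusted p = 0.0206). AT4G27280, another EF-hand gene, read 11.13, 10.27 and 10.30 at 30 min and 9.33, 10.18 and 8.72 at 0 min (1.15 ± 0.34, adjusted p = 0.0453). The 0 min arrays spread widely. CML38, a calmodulin-like gene, read 4.35, 7.77 and 4.51 at 0 min, with replicate 2 above the 6.49, 5.89 and 6.07 at 30 min, and did not pass (0.61 ± 0.64, adjusted p = 0.653). STZ, the zinc finger regulator also called ZAT10, read 6.52, 8.25 and 6.46 at 0 min, against 8.46, 7.87 and 7.91 at 30 min, and did not pass either (1.01 ± 0.40, adjusted p = 0.141). AT4G27280 was not called without stn7 0 min replicate 1 or 3 or any stn7 30 min replicate, and AT3G47480 not without stn7 0 min replicate 3 or stn7 30 min replicate 1 or 2. With 1 array left out between 0 and 4 members rose.

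GI, or GIGANTEA, a clock gene that also acts in flowering and light signalling, rose in every array. GI was the 1 measured gene of the 22 on the circadian clock list. It read 8.85, 8.85 and 9.07 at 30 min, against 8.35, 8.26 and 8.17 at 0 min (0.66 ± 0.10, adjusted p = 0.000651), and was called in all 16 alternatives that tested it. Some rises were already over by 60 min. AT5G17760, which encodes an AAA-type ATPase, read 7.47, 7.34 and 7.51 at 30 min, against 6.73, 6.29 and 5.60 at 0 min (1.23 ± 0.20, adjusted p = 0.00122). By 60 min it was at 6.34, 6.58 and 6.55, inside the 0 min range, a drop of 0.95 ± 0.20 between 30 and 60 min (-0.95, adjusted p = 0.00447). OCT4, an organic cation transporter gene, came down in the same way (0.93 ± 0.17 at 30 min, then -0.75 ± 0.17). AT1G61890, a MATE-type transporter gene, instead rose by 0.96 ± 0.18 at 30 min and by a further 0.82 ± 0.18 by 60 min.

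The other genes among the 20 largest rises changed by 0.89 to 1.42. They included AT3G19680 (1.42), AT5G52750 (1.32), AT1G20823, a RING-type ubiquitin ligase gene (1.29), AT1G30250 (1.19), AT5G35735 (1.15), AT3G15310 (1.15), AT3G23170 (1.11), AT1G69760 (1.09), AT3G28270 (1.05), AT2G43620, a chitinase-family gene (1.03), and AT1G43910, an AAA-type ATPase gene (0.99). AT1G16500 (0.90) and AT2G47440 (0.89) closed the set. Of the 20, 9 were called in every alternative apart from the fold minimum. AT2G43620 was lost in 10 alternatives, AT1G43910 in 5 and AT5G52750 in 3, among them leaving out stn7 30 min replicate 2 and stn7 0 min replicate 3 (adjusted p up to 0.558 over these genes).

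Among genes of photosynthesis, pigment synthesis held several calls. Of 9 measured genes of chlorophyll and haem synthesis 4 fell and 0 rose (44.4% called, against 7.25% of all probe sets). The median was -0.30. HEME2 (-0.49 ± 0.10, adjusted p = 0.00534) and HEME1 (-0.44 ± 0.09, adjusted p = 0.0073) encode uroporphyrinogen decarboxylases, at a step shared by the chlorophyll and haem branches. CHLM (-0.46 ± 0.11) encodes the Mg-protoporphyrin methyltransferase and PORB (-0.40 ± 0.11) the light-dependent protochlorophyllide oxidoreductase. Each of the 4 had 30 min arrays under all 0 min arrays, for example 11.58, 11.61 and 11.44 against 12.00, 11.94 and 11.89 in PORB. That adds little to the calls, since 1606 of all 1649 called probe sets had no overlap. Between 2 and 3 fell with 1 array left out. HEME1 was lost without stn7 30 min replicate 3, CHLM without stn7 30 min replicate 2 or stn7 0 min replicate 2, and PORB without any of the 6 arrays (adjusted p up to 0.284 for PORB).

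None of the measured members of the antenna, photosystem and carbon fixation lists passed the limma test. Measured were 3 of 20 antenna genes, 7 of 35 photosystem, electron transport and ATP synthase genes and 3 of 21 Calvin-Benson genes. The other members of these lists were not examined here. Called genes of the photosynthetic apparatus outside these lists included NdhL, CYTC6A and HCF101, chosen after their values were seen. NdhL, a subunit gene of the thylakoid NDH complex of cyclic electron flow, read 8.82, 8.82 and 8.36 at 30 min, against 9.26, 9.57 and 9.54 at 0 min, without overlap (-0.79 ± 0.13, adjusted p = 0.00128), and was called in all 16 alternatives. CYTC6A, for a cytochrome of the thylakoid lumen, changed by -0.64 ± 0.17 (adjusted p = 0.0277) and HCF101, for an iron-sulfur scaffold needed by photosystem I, by -0.34 ± 0.10 (adjusted p = 0.0408). Both were lost without stn7 0 min replicate 2 or 3 or stn7 30 min replicate 2 or 3. The 3 antenna genes, LHCB4.1 to LHCB4.3 of the minor PSII antenna protein CP29, changed by -0.03, -0.13 and -0.09 (0 at an unadjusted p under 0.05). Of 7 nuclear genes for photosystem, electron transport and ATP synthase subunits 0 were called (2 at an unadjusted p under 0.05), and PSAN, of photosystem I, came closest (-0.38 ± 0.11, adjusted p = 0.0548). The Calvin-Benson genes PRK, SBPASE and RCA changed by -0.13, -0.05 and 0.02 (0 at an unadjusted p under 0.05). Of 69 plastid-encoded genes 0 were called, against 7.25% of all probe sets, and 3 had an unadjusted p under 0.05. The median of the 69 was -0.03, with a range of -0.65 to 0.71. The labelling kit primes on poly(A) tails, which organelle transcripts carry little of. AT3G47070, the locus of a thylakoid phosphoprotein, changed by -0.41 ± 0.12 (adjusted p = 0.051), and the 4 reference genes changed by between -0.05 and 0.07.

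Among 16 mitochondrion-encoded genes 2 rose and 0 fell, a share of 12.5% against 7.25% of all probe sets called, with a median of 0.13 against 0.01. The complex I gene nad9 read 5.77, 6.20 and 6.06 at 30 min, against 5.39, 5.34 and 5.48 at 0 min (0.60 ± 0.11, adjusted p = 0.00293). The complex I gene nad5 read 5.89, 6.27 and 6.30 at 30 min, against 5.50, 5.20 and 5.65 at 0 min (0.71 ± 0.17, adjusted p = 0.0157). Neither gene had overlapping groups, and nad5 was lost without stn7 0 min replicate 2 or stn7 30 min replicate 2 or 3 (adjusted p up to 0.0865). Between 1 and 5 members rose with 1 array left out. With dim probe sets filtered out, 4 of the 16 remained and 0 of them were called. Labelling from poly(A) tails limits these readings as it does those of the plastid-encoded genes.

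Of 19 expansin genes, whose products loosen cell walls, 3 fell and 0 rose (15.8% called, against 7.25% of all probe sets). The median was -0.16. EXPA16 changed by -0.59 ± 0.16, EXLB1 by -0.55 ± 0.12 and EXPB3 by -0.51 ± 0.15, and between 0 and 3 fell with 1 array left out. BCAT4, an aminotransferase gene that starts the chain elongation of methionine for glucosinolates, fell (-0.85 ± 0.20, adjusted p = 0.0157). It was the 1 called of 3 measured members of its list (33.3%, against 7.25% of all probe sets). That call was lost without stn7 0 min replicate 2 or 3 or stn7 30 min replicate 3. Of 43 measured exostosin and UGT-type glycosyltransferase genes 1 rose and 0 fell (2.3% called, against 7.25% of all probe sets). The list median was 0.0, with 22 members above 0 and 21 below. The gene that rose was UGT87A2 (0.80 ± 0.17, adjusted p = 0.00904). Outside the list UGT84A3 rose by 0.85 ± 0.14 (adjusted p = 0.00169). IAGLU, which couples glucose to the auxin indole-acetate, was called at 0.45 ± 0.13 (adjusted p = 0.0406). UGT84A3 and IAGLU were chosen after their values were seen. UGT84A3 was called in all 16 alternatives, UGT87A2 was lost without stn7 0 min replicate 3, and IAGLU was lost in 11 alternatives, among them without stn7 0 min replicate 2 or 3 or stn7 30 min replicate 2 or 3. CYP71B22 was the 1 called of 24 measured cytochrome P450 genes (4.2%, against 7.25% of all probe sets). It changed by -0.94 ± 0.21 (adjusted p = 0.0103), a call lost without stn7 0 min replicate 2. Of 7 WRKY factor genes 0 were called, against 7.25% of all probe sets, and 1 had an unadjusted p under 0.05. WRKY53 changed by 0.93 ± 0.30 (adjusted p = 0.0723).

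**Figure D3:**
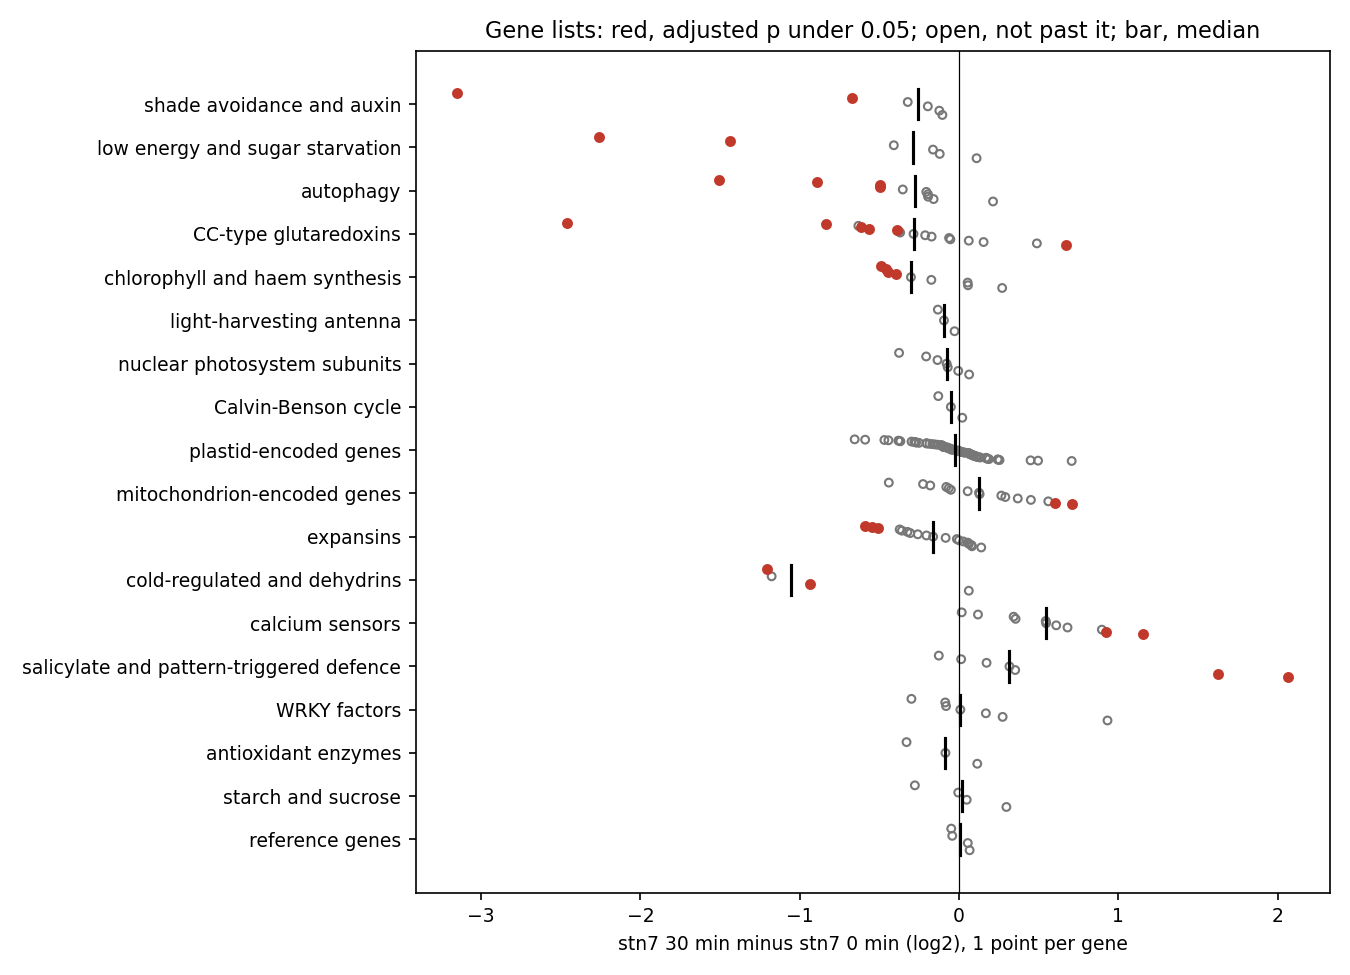
Change of each measured gene in stn7 leaves (stn7 30 min minus stn7 0 min, log2, horizontal axis) by gene list, with genes past an adjusted p of 0.05 in red, the others open and the list median as a black bar. Autophagy and chlorophyll and haem synthesis each have 4 red points, all below 0, and the 69 plastid-encoded genes have none.

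COR15A and COR15B fell in stn7, out of 4 measured members of the cold-regulated list. These neighbouring genes encode chloroplast proteins that protect membranes during freezing. COR15A read 8.94, 8.84 and 8.68 at 30 min, against 10.10, 10.17 and 9.79 at 0 min (-1.21 ± 0.18, adjusted p = 0.000421), and had come back to 9.38, 10.02 and 10.08 by 60 min. COR15B read 9.61, 9.03 and 8.97 at 30 min, against 10.03, 10.31 and 10.07 at 0 min (-0.93 ± 0.18, adjusted p = 0.00511). Both fell without overlap and in all 16 alternatives that tested them. No member rose. LTI30 changed by -1.18 ± 0.41 (adjusted p = 0.0951) and COR47 by 0.06 ± 0.17, and the median was -1.05. COR15A and COR15B are close copies, so their probe sets may share signal.

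**Figure D4:**
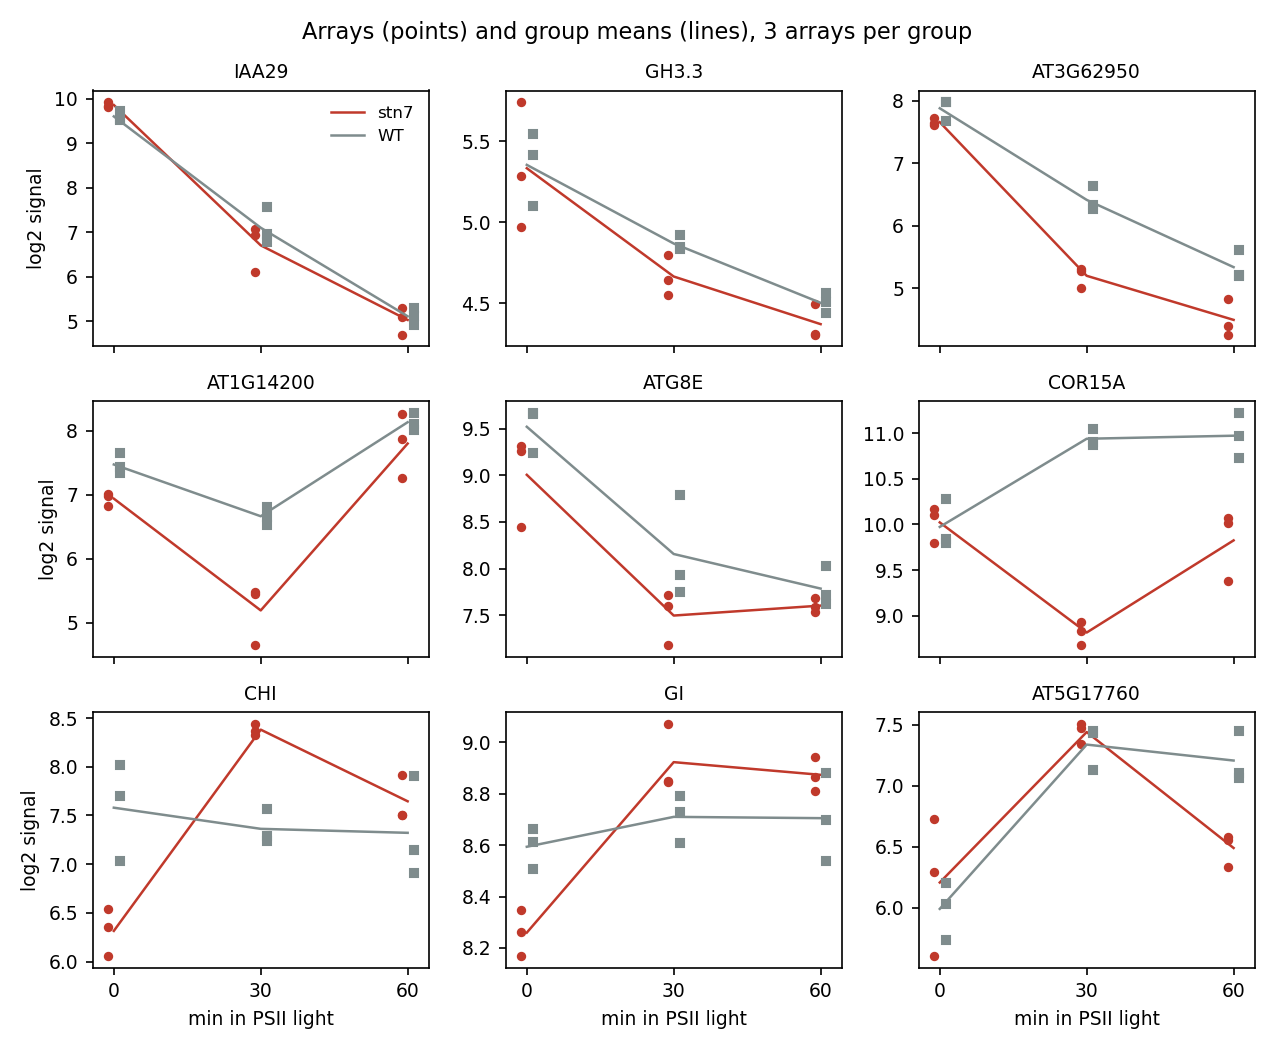
Log2 signal (vertical axis) at 0, 30 and 60 min in PSII light for 9 genes, with stn7 arrays as red circles and WT arrays as grey squares and lines through the group means. IAA29 and AT3G62950 keep falling in stn7, AT1G14200 falls and then rises above its start, and COR15A falls in stn7 at 30 min while the WT arrays lie higher than at 0 min.

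Whether the 30 min change differed from that of WT was tested directly, as the stn7 change minus the WT change. It did so for 463 probe sets, 2.04% of those tested, with 217 more positive in stn7 (0.954%) and 246 more negative (1.08%). IAA29 was not among them: it changed by -3.15 in stn7 and by -2.50 in WT (difference -0.65 ± 0.31, adjusted p = 0.259). Of the 20 largest falls in stn7, 3 passed this test, and of the 20 largest rises, 2. The median change of the 860 called falls was -0.58 in stn7 and -0.45 in WT, and that of the 789 called rises 0.51 in stn7 and 0.25 in WT. These probe sets were chosen by their stn7 change, and the medians are given as a description.

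COR15A moved in opposite directions. Its change was -1.21 in stn7 and 0.96 in WT, where it read 11.05, 10.86 and 10.90 at 30 min and 9.80, 9.84 and 10.28 at 0 min (difference -2.17 ± 0.25, adjusted p = 0.000822). It was called in all 22 alternatives that tested it. COR15B (difference -1.29 ± 0.26, adjusted p = 0.0281) and COR47 (difference -1.26, adjusted p = 0.0247, with 0.06 in stn7 and 1.32 in WT) differed as well. ATG8B of the autophagy list differed too, at 0.21 in stn7 and -0.90 in WT (difference 1.11, adjusted p = 0.0364). COR47 and ATG8B, like cox1, ccb452 and nad6 among the mitochondrial genes, were chosen after their values were seen. CHI rose in stn7 by 2.07 and changed by -0.22 in WT, where it read 7.29, 7.23 and 7.56 at 30 min and 7.70, 7.03 and 8.01 at 0 min (difference 2.28 ± 0.33, adjusted p = 0.00576). The stn7 0 min arrays, at 6.35, 6.54 and 6.06, lay under every WT array at 0 and 30 min. The defensin-like AT3G05730 changed by -2.88 in stn7 and -0.56 in WT (difference -2.31 ± 0.40, adjusted p = 0.0196), and the lipid-transfer gene AT5G01870 by -1.93 and -0.10 (difference -1.83 ± 0.35, adjusted p = 0.0253). The glutaredoxin gene AT3G62950 fell in both genotypes, by -2.46 in stn7 and -1.47 in WT (difference -0.99 ± 0.22, adjusted p = 0.0346).

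Over all probe sets 0.954% had a called difference more positive in stn7 and 1.08% a more negative one. Of the 16 mitochondrion-encoded genes 6 had a more positive change in stn7 and 0 a more negative one. They were cox2 (difference 1.73), nad5 (1.37), nad6 (1.16), ccb452 (1.12), cox1 (1.09) and nad9 (1.01). In cox2, a cytochrome oxidase gene, the change was 0.56 in stn7, not past the threshold, and -1.17 in WT. AT2G07741 (difference 1.77), SPT, or SPATULA, a bHLH factor gene (1.42), AT5G25450 (1.39), AT5G12110 (1.37) and AT1G14120 (1.33) also had more positive changes in stn7. More negative ones were those of 3xHMG-box2, a chromatin protein gene (-2.09), AT5G50740 (-1.82), AT1G04800 (-1.77), AT4G22000 (-1.70) and AT3G13190 (-1.68). In AT5G50740, AT4G22000, AT3G13190 and AT1G14120 the stn7 change itself was small, between -0.15 and 0.10, and the difference came with a WT change of -1.38 to 1.80.

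The WT 0 min arrays weighed heavily in this test. With WT 0 min replicate 1 left out 18 probe sets passed, without replicate 3 it was 23, and without replicate 2 it was 2216. Without both WT 0 min arrays of the highest score on the within-group axis, replicates 1 and 3, 3 passed: COR15A and 2 probe sets that the annotation used does not name, with differences of 1.96 and -1.26. With the axis as a covariate 11 passed. It was 26 without stn7 0 min replicate 1, 1179 without stn7 0 min replicate 3, 25 without WT 30 min replicate 2 and between 32 and 120 with a stn7 30 min array left out. Without stn7 0 min replicate 2 and WT 30 min replicate 3 the counts were 84 and 114. CHI, nad9, AT2G07741 and AT5G12110 lost the call only when both WT 0 min arrays were removed, and cox2 and ccb452 then and with the axis as a covariate. Except for COR15A, the other differences named here were lost without WT 0 min replicate 1 and without replicate 3.

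**Figure D5:**
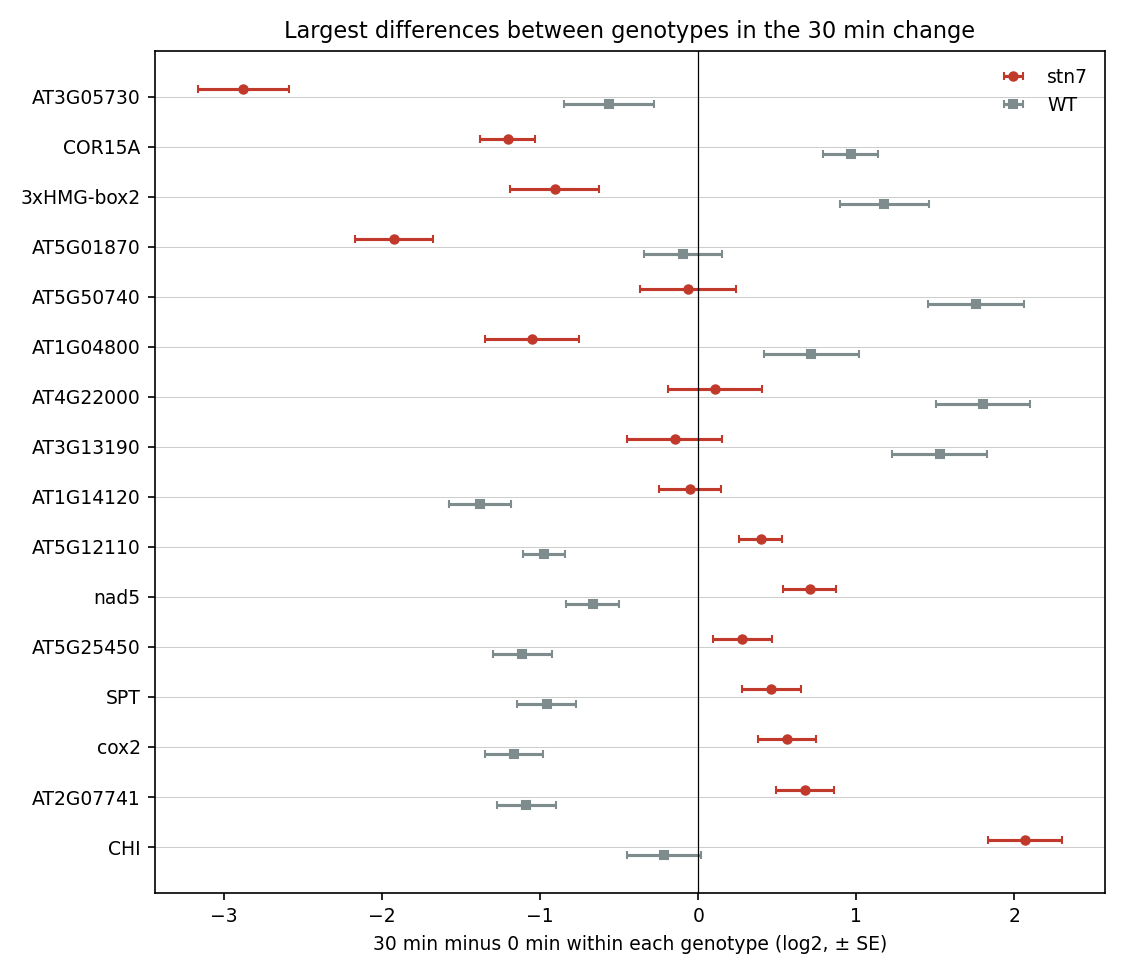
Change from 0 to 30 min (log2, horizontal axis, bars ± SE) in stn7 (red circles) above WT (grey squares) for the 16 genes with the largest differences between genotypes. COR15A stands at -1.21 in stn7 and 0.96 in WT, and CHI at 2.07 in stn7 and -0.22 in WT.

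Between 30 and 60 min in stn7 3702 probe sets changed (16.3% of those tested, 7.36% higher and 8.91% lower). Of the 789 probe sets called higher at 30 min, 226 were then lower and 59 higher still, and of the 860 called lower, 171 were then higher and 83 lower still. These counts share the 30 min arrays with the first comparison. With the 3' to 5' difference as a covariate 798 passed, and with the axis 1110. The 3' to 5' difference was 1.11 ± 0.16 in stn7 at 60 min, against 0.895 ± 0.049 at 30 min, and its part in these counts was not tested further. Without stn7 30 min replicate 2 or 3 the counts were 2302 and 1551, and without stn7 60 min replicate 1 or 2 they were 2279 and 2295.

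The annotation used named probe sets for 2 of 8 guard cell markers. For the leaf mesophyll and root markers it was 1 of 6 each. The other markers may be among the probe sets that it does not list. AT1G22690, a guard cell marker called GC1, read 5.79, 5.70 and 5.63 at 30 min, against 6.06, 6.75 and 6.5 at 0 min (-0.73 ± 0.17, adjusted p = 0.0153). The guard cell regulator gene FAMA, annotated as FMA, averaged 7.30 ± 0.05 at 30 min and 7.03 ± 0.12 at 0 min and so lay in the opposite direction. In whole leaves fewer cells of a type and less RNA per cell cannot be told apart. The GC1 call was lost without stn7 0 min replicate 2 or 3 or stn7 30 min replicate 2 or 3 (adjusted p up to 0.0788).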

How the data were processed

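RNA of rosette leaves was labelled from poly(A) tails and hybridised to 1-colour Affymetrix arrays. The deposited values are log2 signals that the authors made with RMA, a method that subtracts background, equalizes the arrays' distributions and summarises probes, using GCOS and Affymetrix Expression Console 1.1, per the submitters' processing notes. The probe definition is not given in the sources used here. Of 22810 probe sets, 64 controls were left out and 22746 tested. GEO's platform annotation gave 1 gene for 13513 of them and several for 503, and 8730 were not listed. RefSeq's gene table for TAIR10.1 updated the names of 13436.

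limma 3.58.1 (R 4.3.3) fitted 1 mean per group over all 18 arrays with lmFit, contrasts.fit and eBayes. Adjusted p-values are Benjamini-Hochberg over 22746 probe sets, at a threshold of 0.05. They set each change against a moderated spread estimated over all 6 groups, each of 3 biological replicates of pooled plants. The code of the fit was run on simulated data with known changes and independent arrays. The simulation held no axis shared by arrays, so it says nothing of how the counts depend on single arrays. Tables and figures were made with Python 3.11.15, pandas 2.3.3 and matplotlib 3.10.9.

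The text names the 20 largest rises and 20 largest falls with 1 gene, an adjusted p under 0.05 and no overlap between groups. It further names the 8 largest genotype differences in each direction, the called members of each list (at most 6, or up to 3 of lowest p) and the 5 probe sets most like IAA29. Genes outside this rule are said to be chosen after their values were seen. For genes on more than 1 probe set the one with the highest mean was used. The members and lists were chosen with earlier results of these data known, and lists partly come from the annotation's words. Alternatives were median centring, quantile normalization, a filter on dim probe sets, a fold minimum of 2, array weights, trended robust variance, only the compared groups, a replicate block, single arrays left out, the within-group axis and the 3' to 5' difference as covariates. Both pairs of arrays removed together were chosen after seeing the data. Same-numbered arrays of stn7 at 30 and 0 min did not deviate together (r = -0.411, -0.161 and -0.265), and unlike-numbered arrays correlated at -0.14 to 0.368, so the numbers were not taken as pairs. The numbers are those of the titles. The descriptions give the third 0 min array of each genotype another number, so for these arrays a shared number has no support in the descriptions.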

Additional observations from a re-analysis of the deposited data

Results flagged for a closer look

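These genes were marked because the 30 min change in stn7 differed from that in WT in limma's test of the difference itself. Each value is the stn7 change minus the WT change (log2). The difference was lower in stn7 for AT3G05730 (-2.31), COR15A (-2.17), 3xHMG-box2 (-2.09), AT5G01870 (-1.83), AT5G50740 (-1.82), AT1G04800 (-1.77), AT4G22000 (-1.70) and AT3G13190 (-1.68). It was also lower for COR15B (-1.29), COR47 (-1.26), AT3G62950 (-0.99), KINESIN-12B (-0.84), SECE1 (-0.76), EXLB1 (-0.67) and BUBR1 (-0.56).

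It was higher in stn7 for CHI (2.28), AT2G07741 (1.77), cox2 (1.73), SPT (1.42), AT5G25450 (1.39), AT5G12110 (1.37), nad5 (1.37) and AT1G14120 (1.33). The smaller ones were nad6 (1.16), ccb452 (1.12), ATG8B (1.11), cox1 (1.09), nad9 (1.01) and AT1G69760 (0.90). Of these 29 differences, COR15A was the 1 that passed in all 22 alternatives.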

How the results depend on the processing

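The 1649 probe sets called at 30 min in stn7 became 2597 with array weights, 798 with only the compared groups in the fit, 149 with a fold minimum of 2 and 382 without both outer stn7 0 min arrays, and 684 to 2143 with 1 array left out. The 463 genotype differences became 1500 with array weights, 29 with only the compared groups, 161 with the fold minimum, 11 with the axis as a covariate, 3 without both WT 0 min arrays, and 18 to 2216 with 1 array left out. With the replicate number of the titles as a block the 463 became 155 and the 1649 became 1406. The 3702 changes between 30 and 60 min became 1110 with the axis, 798 with the 3' to 5' difference, 406 with the fold minimum and 1551 to 3887 with 1 array left out. After median centring these last split into 2263 higher and 1623 lower, against 1675 and 2027 as deposited. Leaving out an array, or fitting fewer groups, lowers the number of arrays behind each test, yet some counts rose with 1 array left out. The cause of these shifts was not tested for any alternative. Of 182 values of named genes, 0 changed sign with a call on either side, other probe sets not being checked for this, and 42 of the 95 named genes called at 30 min remained called in every alternative that tested them, apart from the fold minimum. With 3 arrays per group, small changes could not be told from array spread.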

Other observations

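Cell division genes, a list put together after the values were seen and given here as a description, lay mostly below 0 in stn7 at 30 min. Of 18 measured members 10 were called lower and 0 higher (55.6% called, against 7.25% of all probe sets). The median was -0.51 in stn7 and -0.23 in WT. AUR2, an Aurora kinase gene of mitosis, read 5.60, 5.02 and 5.15 at 30 min and 6.49, 6.64 and 6.68 at 0 min, without overlap (-1.35 ± 0.18). BUBR1 of the spindle checkpoint changed by -0.59 and KINESIN-12B, a motor of the division plane, by -0.60. Between 5 and 9 members were called lower with 1 array left out, and 1 was without both outer stn7 0 min arrays.

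Of 13 glutathione S-transferase genes, also listed after their values were seen, 3 were called lower and 0 higher (23.1%, against 7.25% of all probe sets). They were GSTU20 (-0.90), GSTF4 (-0.69) and GSTU18 (-0.70). GSTU18 was called in all 16 alternatives. GSTU20 was not called without stn7 30 min replicate 3, and GSTF4 was not called without stn7 30 min replicate 2. IQD genes, whose products bind calmodulin, were listed after their values were seen as well. Of 15 measured, 4 were called lower and 1 higher (33.3% called, against 7.25% of all probe sets). The median was -0.04. Between 0 and 3 were called lower with 1 array left out, 0 without both outer stn7 0 min arrays, and the rise of IQD24 (0.35) was called in 4 of 16 alternatives.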
